A study of Homo sapiens with 4 samples.

Results

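The positions described here are cytidines in noncoding exons: exons of long noncoding RNAs (lncRNAs), of pseudogenes and of noncoding transcripts of protein-coding genes. They were chosen by annotation alone, as all positions that the deposited tables place in the segment ncExon. There were 384 of them among 17862 listed positions. The control table held 220 of its 8112 positions in such exons, the TGF-β1 list had 191 of 11735, and 27 positions were in both. The cells were LX-2, an established human hepatic stellate cell line of wild-type genotype, either untreated or given human recombinant TGF-β1 at 5 ng/ml for 24 h, with 2 libraries per group labelled as biological replicates. Polyadenylated RNA was analysed with sodium borohydride (NaBH4) sequencing, in which reduced N4-acetylcytidine (ac4C) can be misread as T during reverse transcription. Each group has 1 pooled table with 1 mismatch difference (given here in percent) and 1 p-value of the authors for each position. Reads, depths and single libraries are not in these tables. No value here therefore carries a replicate error, and no difference between the groups has a replicate check. Libraries prepared with no NaBH4, or from cells lacking the ac4C writer NAT10, are not among the samples analysed here, so whether a listed mismatch is ac4C was not tested. Absence from a list does not show absence of the mark, because coverage and the authors' cut-off also decide what is listed. A different transcript level and a different share of modified copies cannot be told apart from a listing alone.

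lncRNAs are transcripts with no long conserved reading frame. Many stay in the nucleus, where they scaffold bodies such as nuclear speckles and paraspeckles, and others serve as hosts from whose introns small nucleolar RNAs (snoRNAs) or microRNAs are cut. Most human pseudogenes are retrocopies of the messenger RNAs of highly expressed genes, ribosomal protein genes above all, that were inserted into the genome without introns. A read of a retrocopy can be nearly identical to a read of its parent messenger RNA. NAT10 is known to acetylate ribosomal RNA and transfer RNA, and ac4C has been mapped in messenger RNA and in noncoding RNA.

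The sequence around 5 of the positions could be read, because they fall in the promoter windows of RefSeq (build GRCh38.p14, 250 bases before to 50 bases after a gene's start). They are shown because they give the base and its context directly. The listed cytidine is the capital letter, with 12 bases to each side, 5′ to 3′ on the strand of the position.

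PPP4R3B, chr2:55617619-55617643, minus strand, 5.08% in control: cgtgcgagcctgCtggaggaggaag
H2AZ1, chr4:99950283-99950307, minus strand, 5.48% in control: gtataaagggagCagggaaggcggg
FGD5-AS1, chr3:14947394-14947418, minus strand, 13.95% after TGF-β1: ccttggccgcggCcgggcgggcgga
NUP153-AS1, chr6:17707071-17707095, plus strand, 4.65% after TGF-β1: aaggaagagggaCggggaaggagat
RABEP2, chr16:28925445-28925469, minus strand, 20.1% after TGF-β1: cttccaaggtcaCggagagacgccg

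The positions in PPP4R3B, H2AZ1 and RABEP2 lie 9, 20 and 219 bases before the RefSeq start of the same gene. Those in FGD5-AS1 and NUP153-AS1 lie 177 and 158 bases before the starts of NR2C2 and NUP153 on the opposite strand. None of the 5 has the trinucleotide CCG with the listed base in its middle, and 2 are followed by G. Among 465 listed positions of other segments in such windows, 51 (10.97%) had CCG and 265 (57.0%) were followed by G. Over all segments, 478 listed positions fell in a window, and all 478 were C on their strand when the end column of the tables was read as the 1-based position. The coordinates printed here use that reading, in build hg38.

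After TGF-β1 fewer noncoding exon positions were listed than in untreated cells, while the lists as a whole went the other way. The 220 control and 191 TGF-β1 positions give a ratio of 0.868 (exact 95% interval 0.711 to 1.06). All other segments together had 7892 and 11544 positions, a ratio of 1.46 (1.42 to 1.51). The share of the list that lay in noncoding exons was 2.71% in control (95% Wilson interval 2.38 to 3.09) and 1.63% after TGF-β1 (1.41 to 1.87). These intervals cover counting error only, and the difference between segments was not tested, because positions of 1 pair of pooled tables are no replicates. The ratio was 1.37 for 3'UTRs, 1.46 for 5'UTRs and 1.48 for coding sequence. With positions of a deposited p below 0.001 alone, the direction turned, with 110 and 121 noncoding exon positions (ratio 1.10), and the ratio of the other segments was 1.78.

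**Figure D1:**
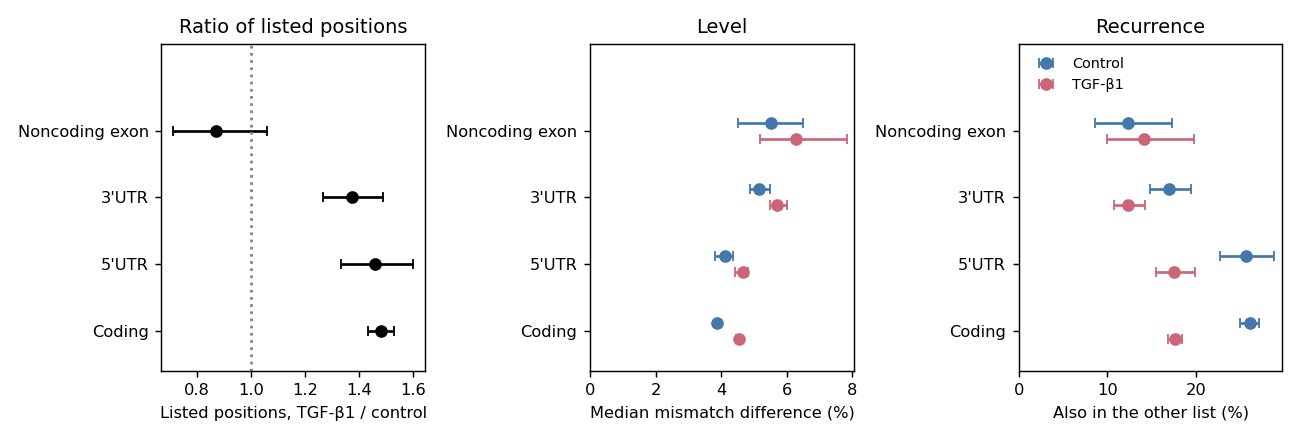
Listed positions by transcript segment: the ratio of TGF-β1 to control positions (exact 95% interval), the median mismatch difference in percent (95% order-statistic interval) and the percentage of each list found again in the other (95% Wilson interval). Noncoding exons, with a ratio of 0.868, stand left of the dotted line at 1, and the other 3 segments stand between 1.37 and 1.48.

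The positions were spread over 277 genes, of which 212 had 1 listed position. After TGF-β1 112 genes (40.4%) had more positions and 128 (46.2%) had fewer; over all 5948 genes 50.9% had more and 35.6% had fewer. Both tables held 51 of the 277 genes (18.4%), against 44.2% of all genes, while 118 were in the control table alone and 108 in the TGF-β1 table alone. In 27 of those 51 genes the listed cytidines were different ones. The 277 genes were counted by their noncoding exon positions alone, and the 5948 genes by positions of all segments. A gene with 1 position is in both lists only if that position is shared. The shares of the 277 and of the 5948 genes are therefore not like for like.

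By class, 179 positions lay in 116 pseudogenes, 68 in 43 lncRNA genes, 61 in noncoding exons of 56 protein-coding genes and 2 in the mitochondrial 16S rRNA, with the class taken from the RefSeq gene table. The remaining 74, in 61 genes, have no symbol in that table. Pseudogenes had 96 positions in each list. lncRNAs had 38 in the control list and 35 in the TGF-β1 list (ratio 0.921, 0.565 to 1.498). Coding genes had 34 and 33 (0.971, 0.583 to 1.62), and genes without a symbol 51 and 26 (0.510, 0.305 to 0.833). Without the latter the lists held 169 and 165 positions, a ratio of 0.976. For 48 of the 74 positions a RefSeq gene covers at least 50% of the longer of the 2 spans, on either strand, and with these the pseudogenes numbered 218, with 126 control and 106 TGF-β1 positions.

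Mismatch differences in noncoding exons had a higher median than the pool of the other segments, most of which is coding sequence. That median lay close to the median of 3'UTRs, while high values were more frequent than in 3'UTRs. The highest values were 70.8% and 74.98% in noncoding exons, and 83.3% and 100% elsewhere. Untreated cells had a median of 5.52% there (95% order-statistic interval 4.51 to 6.48), and treated cells one of 6.29% (5.17 to 7.84). Over the other segments the median was 4.02% (3.94 to 4.10) and 4.67% (4.58 to 4.75). In 3'UTRs alone it was 5.15% (4.87 to 5.49) and 5.71% (5.49 to 6.0), and these intervals overlap those of noncoding exons. Of the noncoding exon positions 63 (28.6%) were at 10% or more in control, against 12.4% of the whole control list, and 64 (33.5%) after TGF-β1, against 18.5%. At 20% or more were 19 (8.64%) in control, against 2.39%, and 29 (15.2%) after TGF-β1, against 4.3%. In 3'UTRs 20.6% and 24.7% were at 10% or more, and 3.996% and 6.04% at 20% or more. Coding genes had the highest class median after TGF-β1, 10.05% against 6.12% in control. Pseudogenes had 5.14% and 5.24%, lncRNAs 4.44% and 5.87%, and genes without a symbol 7.21% and 7.72%. The intervals of these class medians overlap between the groups in each of these 4 classes.

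**Figure D2:**
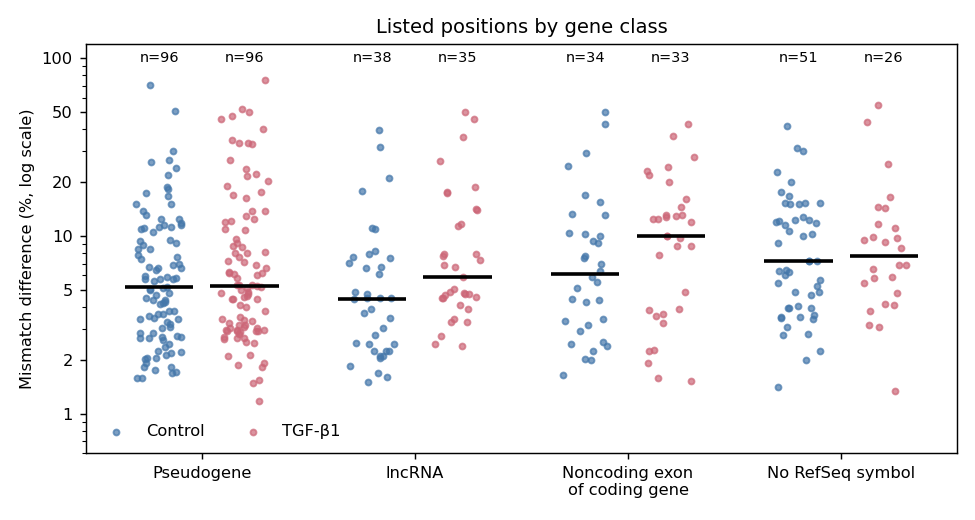
Mismatch difference in percent (log scale) of each noncoding exon position by gene class; a dot is a position, the black bar is the median and n is the number of positions. The 2 positions of mitochondrial rRNA are not drawn. In each class the values of both groups run from below 3% to above 35%.

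The authors' p-value was exactly 0 at 44 (20%) of the control positions, against 8.04% of the whole list, and at 56 (29.3%) after TGF-β1, against 11%. The 95% Wilson intervals, 15.2 to 25.8 and 23.3 to 36.1, overlap those of 3'UTRs, where the shares were 16.5% (14.3 to 18.9) and 22.4% (20.3 to 24.6). Pseudogenes held 28 and 29 of these, coding genes 3 and 12. Such positions had a median of 10.6% in control and 10.4% after TGF-β1, and those with a p above 0 had 4.74% and 5.07%. In the other segments the medians were 6.25% and 7.41% at a p of exactly 0, and 3.88% and 4.45% at a p above 0. Without positions of p exactly 0, noncoding exons thus stood closer to the other segments after TGF-β1. A position of p exactly 0 recurred in the other list in 1 of 44 and 1 of 56 cases, both times at the same cytidine of CDCA5. In the other segments 5.76% and 4.45% of such positions recurred. What a p of exactly 0 stands for is not given in the sources used here. Below it is stated for some of these positions only.

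Recurrence was lower than in the control list as a whole. The 27 shared positions were 12.3% of the control positions in noncoding exons (95% Wilson interval 8.57 to 17.3), against 24.5% of all control positions. They were 14.1% of the TGF-β1 positions (9.90 to 19.8), against 16.9% of all. In 3'UTRs 17.0% of the control and 12.4% of the TGF-β1 positions recurred. By level, from 1 to 3% over 3 to 5%, 5 to 10% and 10 to 20% to 20% or more, recurrence of the control positions in noncoding exons was 22.6%, 6%, 11.1%, 11.4% and 5.26%. The first of these was 12 of 53 positions, the next 3 of 50 and the last 1 of 19. In the other segments it was 26.9%, 26.4%, 23.3%, 19.97% and 12%. Recurrence of TGF-β1 positions over the same levels was 15.6%, 14.9%, 14.6%, 14.3% and 10.3% in noncoding exons. These were 5 of 32, 7 of 47, 7 of 48, 5 of 35 and 3 of 29 positions, too few to show a trend. In the other segments recurrence of TGF-β1 positions rose with the level, with 10.5%, 16.5%, 19.96%, 22.6% and 22.9%.

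At the 27 shared cytidines, 16 (59.3%) were higher after TGF-β1 and 11 were lower, against 78.4% higher and 21.6% lower over all 1985 shared positions. They had a median of 4.64% untreated and 6.18% treated. The paired differences had a median of 0.50 points (95% order-statistic interval -0.41 to 2.25), and over the other segments 1.75 points (1.58 to 1.92). The median depends on which positions are kept. With a deposited p below 0.001 it was 1.98 points over 13 positions, beside 1.79 in the other segments, and with a level of at least 5% it was 0.04 over 12, beside 2.77. Treated cells exceeded untreated ones by 2 points or more at 10 of the 27, against 46.5% of all, and fell short by as much at 3, against 5.44%. The other 14 lay within 2 points.

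MALAT1, the abundant lncRNA of nuclear speckles, had the widest gap. Its cytidine at chromosome 11 position 65501540 on the plus strand had 1.87% untreated and 36.2% treated. The authors' p-value at this site was 2.84e-05 in control and 0.00246 after TGF-β1, a weaker p at the higher value. HLA-H, a pseudogene of the MHC class I family, had 11.2% and 23.9% at chromosome 6 position 29889763 and 1.83% and 3.81% at position 29888653. CALM2P2, a copy of the calmodulin gene CALM2, had 6.48% and 13.0%. CDCA5, the gene of the cohesin protector sororin, had 7.54% and 12.5% in a noncoding exon. LBX2, a homeobox gene, had 10.4% and 14.5%. CHASERR, a lncRNA next to the chromatin remodeller gene CHD2, had 2.27% and 4.52%, and RPL5P4, a copy of a ribosomal protein gene, had 2.85% and 5.07%. The other positions with an upward gap of at least 2 points are in genes with an Ensembl identifier alone. ENSG00000234337 had 4.64% and 9.48%, ENSG00000280206 had 1.42% and 4.16%, and ENSG00000213144, where RefSeq places PDAP1P1, had 6.47% and 8.57%.

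The 3 positions at least 2 points lower after TGF-β1 were all at high levels in both lists. SNHG17, a snoRNA host gene, had 17.8% untreated and 11.3% treated, on the minus strand of chromosome 20 at 38420799. RPL13P12, a copy of the ribosomal protein gene RPL13, had 26.02% and 21.8% at chromosome 17 position 17383714. TPM1, the gene of an actin-binding tropomyosin, had 15.5% and 13.1% in a noncoding exon at chromosome 15 position 63056980. MYL6, a myosin light chain gene, was nearly level with 9.94% and 9.78%, and C19orf48P with 10.5% and 9.66%; MYL6 was chosen after its values were seen.

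**Figure D3:**
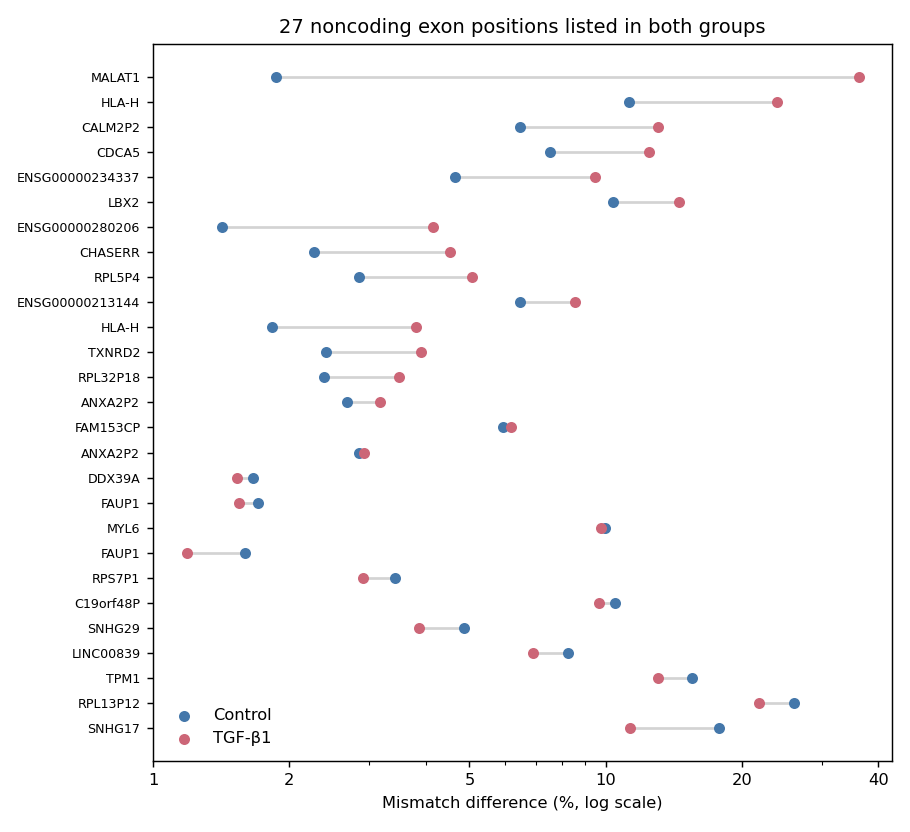
Mismatch difference in percent (log scale) in control and after TGF-β1 at each of the 27 noncoding exon positions listed in both groups, ordered by the difference; a grey line joins the 2 values of 1 position. The 16 upper positions are higher after TGF-β1 and the 11 lower ones are lower, and MALAT1 at the top goes from 1.87% to 36.2%.

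Among 17 nuclear and architectural lncRNAs, 3 had listed positions, 8 sites untreated and 3 treated. All lncRNAs together had 38 and 35 positions, and all segments 8112 and 11735. The gene lists here and below hold too few positions to set against those counts. MALAT1 alone supplied 6 of the 8 untreated and all 3 treated sites of the nuclear and architectural lncRNAs. In control 5 of its 6 positions lay between 1.71% and 3.91%, and the one at position 65505988 had 21.1%. After TGF-β1 it had 4.12% and 4.48% at positions 65500563 and 65500676 beside the shared site. NEAT1, the scaffold of paraspeckles, had 1 position at 2.12%, and NORAD, a lncRNA that binds Pumilio proteins, 1 at 1.52%, both in control. A list of 35 lncRNAs studied in fibrosis or TGF-β signalling also had 3 listed genes, with 8 and 3 positions. They were MALAT1 and NEAT1 again and MEG3, an imprinted lncRNA, with 1 control position at 7.58%.

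In 5 of 32 snoRNA host genes the lists held 4 control and 6 TGF-β1 positions, beside 8112 and 11735 in all segments. SNHG29 had 2 and 3, of which the shared site had 4.86% and 3.87%, the other control site 2.46% and the other TGF-β1 sites 7.90% and 3.42%. SNHG22 had 50% at chromosome 18 position 49814078 after TGF-β1, with a p of exactly 0. ZFAS1 had 4.85% after TGF-β1, at a position also annotated to ENSG00000277967, and MEG3 is on this list as well. microRNA host genes had 2 and 2 positions in 3 of 21 genes, all between 2.41% and 3.29%. MIR31HG had 2.47% untreated and 2.41% treated, at different cytidines. The control position of MIR222HG, at 2.78%, lies 559 bases from the hairpin of MIR221, and the TGF-β1 position of MIR23AHG, at 3.29%, lies 1671 bases from that of MIR24-2. No listed position of these host genes fell inside a hairpin.

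In 14 lncRNA genes named as antisense to a neighbour, 8 control and 15 TGF-β1 positions were listed, beside 38 and 35 in all lncRNAs and 8112 and 11735 in all segments. None of the 8 control cytidines recurred, a count too small to set against the 5 of 38 that recurred over all lncRNAs. NECTIN3-AS1 had 2 and 3 positions. In control it had 31.8% at chromosome 3 position 110888910, with a p of exactly 0, and 2.51% at position 110893167. After TGF-β1 it had 7.75%, 2.76% and 2.48% at positions 110893355, 110893359 and 110893490. SCAMP1-AS1 had 11.1% at chromosome 5 position 78359259 in control and 45.7% at the adjacent position 78359258 after TGF-β1. Whether the library kept strand is not given in the sources used here, so mismatches of an antisense RNA and of the gene on the other strand cannot be told apart. lncRNAs with a LINC symbol had 7 and 3 positions. LINC02381 had the highest lncRNA value of the control list, 39.3% at chromosome 12 position 54132439, with a p of exactly 0. LINC00839 had a shared site at 8.27% and 6.91%, a gene chosen after its values were seen.

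Pseudogenes classed by symbol held 179 of the 384 positions, in equal number in both lists, while their parent genes had more positions after TGF-β1. With pseudogenes placed by span included, the lists held 126 control and 106 TGF-β1 positions. A parent was found for 101 of 116 pseudogenes by removing the ending P and its number from the symbol. The matched pseudogenes had 84 control and 79 TGF-β1 positions (ratio 0.940). Their 82 parent genes had 83 and 228 (ratio 2.75), and 73 parents had at least 1 position, 43 of them in control and 72 after TGF-β1. In control 50.6% of the parents' positions recurred after TGF-β1, against 10.7% of the pseudogenes' positions. Of the TGF-β1 positions it was 18.4% and 11.4%. Over all listed positions the ratio was 1.45, and 24.5% of the control and 16.9% of the TGF-β1 positions recurred. The parents thus also stood above the whole list in the ratio and in the recurrence of control positions. The parents had medians of 2.95% untreated and 2.87% treated, and the pseudogenes 5.003% and 4.96%. The parents' counts take in all segments of those genes. These differences were not tested. How the authors placed reads that fit a parent and its copy equally well is not given in the sources used here, and each pseudogene value is uncertain in that respect.

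The pseudogenes were grouped by the protein family of the parent, a grouping made after their values were seen. Only pseudogenes with a parent found by symbol are counted in the families. Ribosomal protein copies known by span alone, such as RPS17P16, RPLP2P3 and RPL27P4, are left out. More of their positions were in control than after TGF-β1, so the balance of this family depends on the symbol rule. By symbol, copies of ribosomal protein genes were the largest family, with 30 control and 25 TGF-β1 positions in 29 pseudogenes, 6 of them shared. Their 25 parents had 12 and 48 positions. RPL13P12 had 2 and 1 positions, and its parent RPL13 had 1 and 7. RPL3P2 had 12.4% and 5.74% in control and 4.96% and 2.72% at other cytidines after TGF-β1, and RPL3 had 0 and 4 positions. RPL32P18 had 3 and 1, with its shared site at 2.38% and 3.50%. RPS7P1 had 3.43% and 2.91% at its shared site, and RPS7 had 3 positions in each list. RPL26P36 had 4.76% untreated and 8.04% treated at different cytidines. RPL23AP42 had 1.83% to 2.75% at 3 control sites and 2.98% at 1 TGF-β1 site, and RPS24P19 had 2.61% to 4.40% and 3.32%. Their parents RPL23A and RPS24 had no listed position in either table. FAUP1, a copy of the gene for the FUBI-RPS30 fusion protein, had 3 and 3 positions, among them shared sites at 1.70% and 1.55% and at 1.60% and 1.19%, and 17.1% at another cytidine after TGF-β1.

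ANXA2P2, a copy of the gene for the membrane-binding protein annexin A2, was the gene with most positions, 9 untreated and 2 treated. Its control values were 1.60% to 11.2%, and the shared sites at chromosome 9 positions 33624705 and 33624711 had 2.85% and 2.93%, and 2.68% and 3.17%. ANXA2P1 had 5.57% and 6.65% in control and none after TGF-β1, while the parent ANXA2 had 2 and 3 positions, and both were chosen after their values were seen. C19orf48P, a transcribed pseudogene for which no parent was found, was the opposite case with 1 and 7 positions. Its shared site at chromosome 19 position 50798266 was nearly level, and the others after TGF-β1 had 33.5% at position 50798820 and between 2.14% and 5.30% elsewhere. CENPBD2P had 5.88% and 6.96% in control and 33.5% at another cytidine after TGF-β1.

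**Figure D4:**
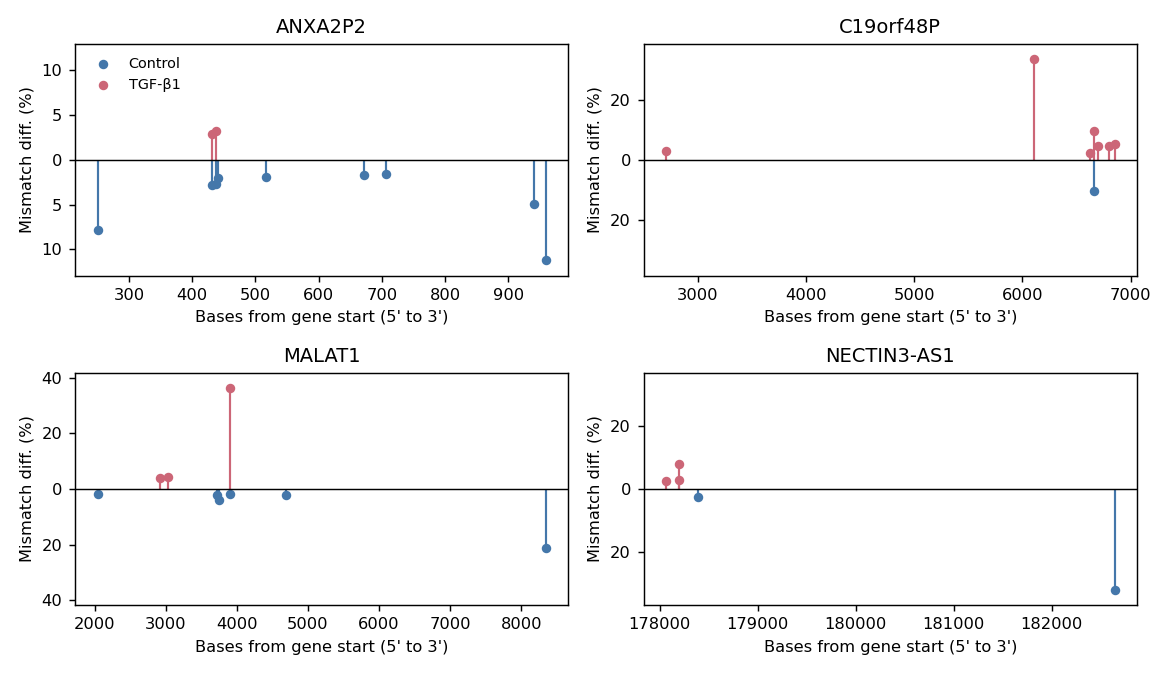
Mismatch difference in percent at each listed position along 4 genes, by bases from the gene start, with TGF-β1 drawn upward and control downward. ANXA2P2 has 9 control and 2 TGF-β1 positions, C19orf48P has 1 and 7, MALAT1 has 6 and 3, and NECTIN3-AS1 has 2 and 3.

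Copies of cytoskeletal genes had 6 control and 14 TGF-β1 positions, and their 9 parents 17 and 35. ACTBP2, a copy of the β-actin gene, had 0 and 4 positions, at 40.1%, 20.4%, 13.8% and 2.12%, and ACTB had 1 and 4. MYL12BP1 had the highest value of all noncoding exon positions in control, 70.8% at chromosome 15 position 42572234, with a p of exactly 0. MYL12B had 0 and 1 positions. ACTG1P23 had 47.1% after TGF-β1 at chromosome 3 position 175977550. MYL6P5 had 5.17% and 22.2% at adjacent cytidines after TGF-β1, each with a p of exactly 0. MSNP1 had 3.54% untreated and 2.89% treated at different cytidines, and its parent MSN, the moesin gene, had 7 positions in each list. KRT8P3 had 6.60% and 1.89%, 6 bases apart.

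Copies of glycolytic genes had 4 and 10 positions, and their 3 parents 7 and 18. GAPDHP65 had 13.0% and 12.5% in control and 3.04% and 1.49% at other cytidines after TGF-β1. TPI1P1 had 3.43% and 4.68% in control, and after TGF-β1 3.05% and 2.66%, each at a cytidine 2 bases away from a control site. PKMP1 had 3.07% and 3.97% after TGF-β1 alone, and the pyruvate kinase gene PKM had 2 and 11 positions. Copies of chaperone genes had 7 and 3 positions against 6 and 29 in their parents. Different cytidines of PDIA3P1 were listed in the groups, with 8.91% untreated and 6.01% treated. Copies of elongation factor genes had 4 and 2 against 4 and 12. EEF1GP2, a copy of EEF1G, had 50% after TGF-β1, with a p of exactly 0.

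Copies of genes for chromatin and RNA-binding proteins had 8 and 13 positions, and their 14 parents 19 and 41. HNRNPA3P6 had 50.2% at chromosome 3 position 75214916 in control, and its parent HNRNPA3, of the hnRNP family, had 5 and 4 positions. YBX1P10 had 51.7% at chromosome 9 position 35972151 after TGF-β1. HMGB1P5 had 4.51% in control and 4.41% after TGF-β1, 2 bases apart. NPM1P27 had 3.03% and 2.54%, and PTMAP2 1.76% and 2.63%, each at different cytidines. The highest TGF-β1 value of all noncoding exon positions was in RPL23AP74, with 74.98% at chromosome 17 position 61069942. FAM153CP, a pseudogene with no parent found, had 5.94% and 6.18% at its shared site.

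**Figure D5:**
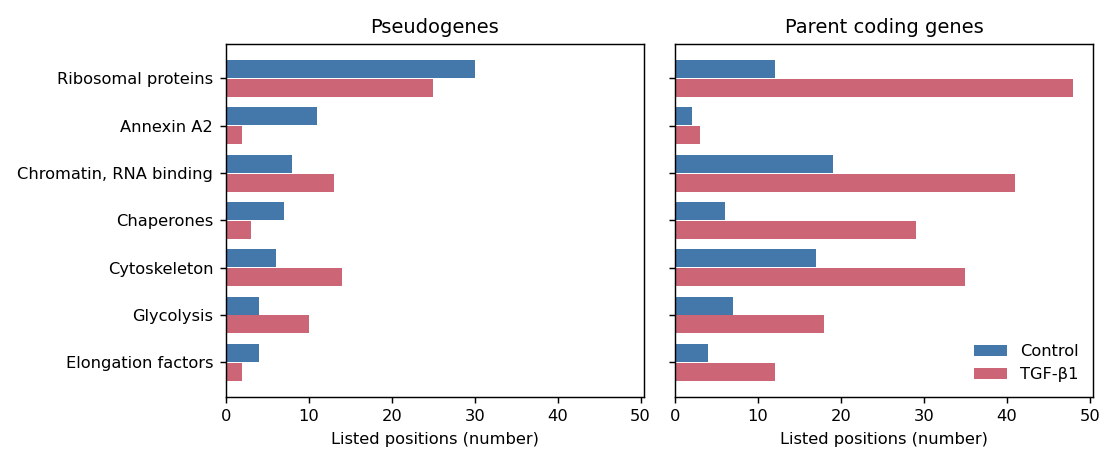
Number of listed positions in pseudogenes (left) and in their parent coding genes (right) for 7 families, in control and after TGF-β1. Pseudogenes are counted only where a parent was found by symbol, so copies known by span alone are left out. The parents have more positions after TGF-β1 in all 7 families, with 12 and 48 for ribosomal proteins, while the pseudogenes of 4 families have fewer.

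In the noncoding exons of coding genes, 6 cytidines were in both lists. No row of these positions places them in coding sequence or in a UTR. ACTG1, the gene of γ-actin, had the highest in control, 49.7% and 42.7% at the adjacent chromosome 17 positions 81511115 and 81511114, with p-values of 0.00638 and 0.0128. MAGED2 had 5.87% in control and 7.84% after TGF-β1, 3 bases apart. Ribosomal protein genes had 0 and 3 positions in such exons. Further examples were chosen from the 56 genes after their values were seen, and a link to a pathway was not tested. SMAD3, a transducer of TGF-β signals, had 13.1% in control alone (authors' p 0.0369). After TGF-β1 alone, the focal adhesion adaptor gene PXN had 42.6% (p 0.00231). TRMT112, which encodes an activator of several methyltransferases, had 36.4% there (p exactly 0). The integrin gene ITGA3 had 12.4% (p 1.22e-25) and the basement membrane collagen gene COL4A2 1.60% (p 0.0266), both after TGF-β1 alone.

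Among the genes without a RefSeq symbol, ENSG00000227034 had 41.7% at chromosome 1 position 99008335 in control, and ENSG00000225616, where RefSeq places RPL27P4, had 54.8% at chromosome 1 position 28982515 after TGF-β1. Both had a p of exactly 0. In a list of 33 ribosomal and structural RNA genes, 1 had listed positions. MT-RNR2, the 16S rRNA of mitochondria, had 1.07% at position 2718 of the mitochondrial genome in control and 7.36% at position 2824 after TGF-β1, with a p of 1.98e-33 at the latter. RNU11, a small nuclear RNA gene, was not in that list. A position annotated to it and to ENSG00000270103 had 4.79% after TGF-β1.

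Some noncoding exon positions stood close together. In 24 genes, 57 positions (14.8%, 95% Wilson interval 11.6 to 18.7) had another noncoding exon position within 10 bases on the same strand, over both tables, and among positions of other segments the share was 16.4% (15.9 to 17.0). In pseudogenes it was 20.7% (15.4 to 27.2). Within each list alone the picture was different. Among control positions the share was 14.5% (10.5 to 19.8) in noncoding exons and 10.7% (10.1 to 11.4) in the other segments. Among TGF-β1 positions it was 6.28% (3.63 to 10.7) and 14.2% (13.6 to 14.8). Pseudogenes had 20.8% in control and 10.4% after TGF-β1. These differences were not tested. RPL5P4 and CHASERR each had a pair of adjacent control cytidines, at 2.85% and 2.06% and at 2.27% and 3.46%, of which the former of each pair was the shared one. In control alone, XRCC6P2 had 5.15% and 5.77% at cytidines 7 bases apart, and PA2G4P1 had 8.50% and 18.4% at cytidines 9 bases apart. OTUD6B-AS1 had 1.61% untreated and 4.50% treated at adjacent cytidines. When a TGF-β1 position within 10 bases counted as the same site, 43 control positions (19.5%) recurred in place of 27. In the other segments, 30.3% recurred by that measure.

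The tables were checked against the cell label through the same lists of positions, which show only genes with a listed cytidine. Of 11 stellate cell markers 3 were listed in control and 6 after TGF-β1, with 9 and 30 positions. No marker of hepatocytes, endothelial cells or cholangiocytes was listed, and of 3 macrophage markers CD68 was, with 3 and 2 positions.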

How the data were processed

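The authors deposited 1 table per group, per the file headers with a line for each cytidine position and overlapping transcript. The deposited column diff is a fraction from 0.01 upward; what it subtracts is not stated. The deposited p-value is below 0.05 throughout, with no word on any adjustment. Build hg38 and the tools STAR 2.7.6a, fastp 0.23.1 and featureCounts are named, without their roles, per the submitters' processing notes. The mismatch caller and how libraries were merged: not given in the sources used here. Depth is unknown.

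Lines were merged by position, and no position had several segments. Gene classes were read by symbol from RefSeq genes (assembly GRCh38.p14). Shares have Wilson intervals, ratios exact binomial intervals and medians order-statistic intervals (95%). The Wilson and the order-statistic intervals were checked on simulated data with known answers, and the exact binomial intervals of the ratios were not. No group test was run. The members, the 5 gene lists, the pseudogene families and the markers were chosen with earlier results of these data known. Named genes followed a rule: shared positions at least 2 points apart, the 6 highest of each list alone, the genes with most positions (12 with ties, 10 planned), list members, pseudogenes in both tables and genes with positions within 10 bases, of which the text gives part; other genes named, such as further parents, were chosen after their values were seen. Python 3.11.15, pandas 2.3.3 and scipy 1.17.1 were used.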

Additional observations from a re-analysis of the deposited data

How the results depend on the processing

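Of 54 recomputed values, 34 stayed within the interval or within 1.5 times of the reported one. Taking the annotation from every row or from any row of a position gave the same 384 positions. That was fixed in advance, because no position had several segments. The control count and control median also could not change when only the TGF-β1 list was shortened. All these values are among the 34, so that number overstates the stability. With a deposited p below 0.001 there were 110 control and 121 TGF-β1 positions (ratio 1.10), 13 shared and 8 of them higher after TGF-β1, with medians of 7.13% and 8.57%. With a mismatch difference of at least 5% there were 117 and 112 positions, 12 shared and 6 higher, with medians of 10.5% and 11.9%. The median paired difference, 0.50 points as reported, was 1.98 points in the former case and 0.04 in the latter. Without positions of p exactly 0 the TGF-β1 median was 5.07% and the paired difference 0.37 points. Keeping as many TGF-β1 positions as the control has, those of lowest p, left 121 noncoding exon positions (ratio 0.55), 15 were shared and 10 higher, and the TGF-β1 median was 8.57%; the paired difference was 1.98 points, and the other segments had a ratio of 1.01 and a difference of 2.10 points. These settings keep fewer positions by construction. Allowing 10 bases between lists, chosen after seeing the data, gave 43 shared positions. Leaving out ANXA2P2 (ratio 0.896) or the MALAT1 site (median difference 0.37 points), both chosen after seeing the data, turned no direction. No paired analysis was possible because the tables hold 1 pooled value per group, and for the same reason no replicate could be left out. A coverage minimum could not be applied.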
